A study of Mus musculus with 18 samples.

Results

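Polycomb repressive complex 2 (PRC2) and the histone demethylases set against it were followed through 10 genes, taken by name from a table of 21995 genes. They are the PRC2 subunits Ezh1, Ezh2, Eed and Suz12, the PRC2 accessory proteins Jarid2 and Mtf2, the H3K27 demethylases Kdm6a and Kdm6b, and the H3K9 demethylases Kdm3a and Kdm3b. All 10 were in the table, and all 10 passed the filter on low counts that left 18352 genes for testing. The rule names genes and uses no measured value, but the genes were chosen with earlier results of these data known.

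PRC2 places methyl groups on lysine 27 of histone H3 (H3K27), a mark of silenced genes that marks many developmental genes in embryonic stem cells (ESCs). Ezh2 and Ezh1 are its alternative catalytic subunits, Eed reads the mark and stimulates the enzyme, and Suz12 holds the core together. Jarid2 and Mtf2 help to bring the complex to its sites on CpG-rich DNA. Kdm6a (also called Utx) and Kdm6b (Jmjd3) remove H3K27 methylation. Kdm3a and Kdm3b remove methyl groups from lysine 9 of histone H3, a separate repressive mark that PRC2 does not place.

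The cells were mouse ESCs, either parental or labelled Oct1_cKO (KO in another label field), and were profiled by RNA-seq. Oct1 is the protein of Pou2f1, a POU-family transcription factor that binds the octamer DNA motif. The 6 groups of 3 libraries were parental cells at day 0, day 2 and day 6 and Oct1_cKO cells at the same days. Day 0 cells were undifferentiated, and cells of days 2 and 6 were grown on 0.01% gelatin in medium with retinoic acid at 1.5 ug/ml, an inducer of differentiation. Both genotypes received that treatment. The sources used here give neither the exons deleted nor the recombinase or agent, nor whether a line is a single clone. The labels do not name separate cultures, so the p-values cover only the spread among the 3 libraries of a group, some or all of which may be technical. Libraries held 13694126 to 19296966 counts.

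Pou2f1 was lower in the cKO throughout, with log2 fold changes of -0.70 ± 0.10 (SE), -0.78 ± 0.10 and -0.60 ± 0.11 for days 0, 2 and 6. The adjusted p of edgeR's quasi-likelihood test, by Benjamini-Hochberg over all genes tested, was 1.35e-05, 2.79e-06 and 8.58e-05. Genes with an adjusted p under 0.05 are said to be called. Its counts were reduced and not lost, from a mean of 129 to 79.2 CPM (counts scaled to library size with TMM factors) at day 0. The count covers the whole gene, so undeleted exons are included. Pluripotency markers were abundant at day 0, with 8 marker genes summing to 5201 to 5251 CPM in parental and 5843 to 6198 CPM in cKO libraries. Of 10 fibroblast markers, listed as markers of feeder cells, 9 were called lower in the cKO at day 0 and 0 higher. Over all genes tested 27% were called lower. These markers summed to 376 to 388 CPM in cKO against 1204 to 1274 CPM in parental libraries. The part of the fibroblast markers in the day 0 differences was not tested. Pairs of parental libraries of day 0 gave chi-square statistics per degree of freedom of 2.796 to 7.471, the highest between replicates 2 and 3. Replicate 3 of the cKO at day 0 stood apart from the other 2 libraries of its group, with statistics of 12.002 and 11.59 against 1.235 between those 2. In that library Pou2f1 was at 62.4 CPM, against 87.2 and 88.2 CPM in the other 2, and without it the Pou2f1 difference at day 0 was -0.55 (adjusted p = 4.65e-12). Genotype differences of the 10 genes at day 0 are therefore also given without it.

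At day 2 of differentiation, 9 of the 10 genes were higher in cKO than in parental cells, and Kdm6b alone was lower. In undifferentiated cells the pattern was mixed: Suz12 was 2.12-fold and Ezh1 1.75-fold lower in the cKO, while Eed, Jarid2, Kdm3a and Kdm3b were 1.16 to 1.46-fold higher. By day 6 most differences were small, except that Ezh1 was 2.28-fold higher and Kdm6b 1.50-fold lower in the cKO. Through differentiation most of these genes fell in both genotypes, and the change from day 0 to day 2 was more positive in the cKO for 9 of the 10. Ezh1 and Kdm6b ran against the others: Ezh1 rose from day 0 to day 2, and Kdm6b rose from day 2 to day 6, in both genotypes.

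**Figure D1:**
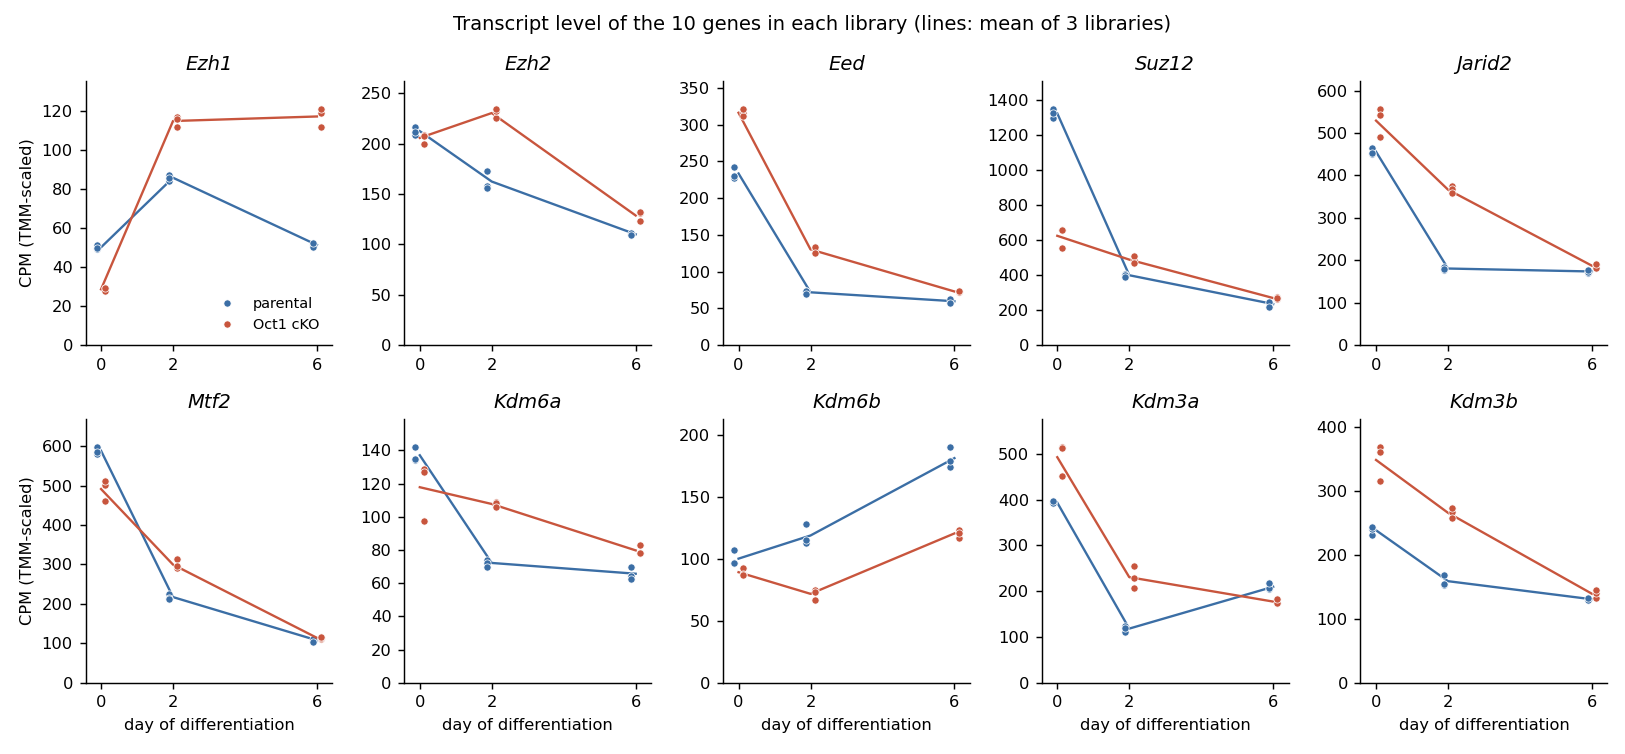
Transcript level of the 10 genes in all 18 libraries, in CPM scaled by TMM factors (vertical axes, each from 0), against day of differentiation. Points are libraries and lines join the means of 3. Suz12 starts at 1299 to 1348 CPM in parental cells and at 556 to 661 CPM in the cKO, and the Ezh1 lines cross between day 0 and day 2.

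The DNA before the catalytic subunits and Suz12 is shown for 2 reasons. Suz12 gave the largest difference between genotypes at day 0 and Ezh1 the largest at day 6, and Ezh2 is the counterpart of Ezh1. Windows run from 250 bases before to 50 after the annotated start and come from RefSeq (GRCm38.p6). Capitals mark matches, on either strand, to 1 of 5 words: the octamer ATGCAAAT, which Oct1 can bind, and the E2F-type words TTTCCCGC, TTTGGCGC, TTTCGCGC and TTTGCCGC, of a kind found at genes of DNA replication. The windows are Ezh1 at chr11:101226414-101226713 (minus strand), Ezh2 at chr6:47594981-47595280 (minus strand) and Suz12 at chr11:79992856-79993155 (plus strand).
Ezh1: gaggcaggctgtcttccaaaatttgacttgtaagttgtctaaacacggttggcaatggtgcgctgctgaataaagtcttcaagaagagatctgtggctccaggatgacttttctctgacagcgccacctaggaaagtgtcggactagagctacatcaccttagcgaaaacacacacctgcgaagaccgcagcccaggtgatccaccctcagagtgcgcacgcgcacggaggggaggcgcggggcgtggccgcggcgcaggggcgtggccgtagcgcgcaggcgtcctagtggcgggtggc
Ezh2: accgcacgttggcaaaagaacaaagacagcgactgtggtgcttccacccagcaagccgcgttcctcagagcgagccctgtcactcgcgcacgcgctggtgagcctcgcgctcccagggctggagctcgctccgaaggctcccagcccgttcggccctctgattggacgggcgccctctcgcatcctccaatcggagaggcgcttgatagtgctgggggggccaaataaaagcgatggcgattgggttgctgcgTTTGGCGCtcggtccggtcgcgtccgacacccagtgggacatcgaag
Suz12: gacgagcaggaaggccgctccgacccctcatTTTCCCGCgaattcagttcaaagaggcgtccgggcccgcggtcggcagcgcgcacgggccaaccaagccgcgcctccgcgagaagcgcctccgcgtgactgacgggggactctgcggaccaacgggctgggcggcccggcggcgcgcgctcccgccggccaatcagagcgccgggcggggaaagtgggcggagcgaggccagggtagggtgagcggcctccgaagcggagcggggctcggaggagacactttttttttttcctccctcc

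Windows were at hand for 8 of the 10 genes, 12 windows in all. None held the octamer, which 1.74% of all 32851 windows of this length hold. An E2F-type word was found in 2 of the 12: TTTGGCGC 3 bases after the start of Ezh2, and TTTCCCGC 219 bases before the start of Suz12. Of all windows, 2.26% hold at least 1 of these 4 words. The GC content was 59.3% for Ezh1, 64.3% for Ezh2 and 71% for Suz12. A word match is a description of the letters and not a binding site.

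In parental cells at day 0, levels were compared per kilobase of exon. Suz12 stood highest at 268 ± 4.91 CPM per kb (SD, n = 3), followed by Mtf2 at 103 ± 1.48 and Eed at 61 ± 2.12. Kdm3a (47.8 ± 0.266), Jarid2 (46.9 ± 0.73) and Ezh2 (31.8 ± 0.536) came next on the same scale. Libraries of Kdm3a (47.7 to 48.1 CPM per kb) and Jarid2 (46.4 to 47.7) touched, so these neighbours could not be ordered. Kdm3b (16.9 ± 0.453), Kdm6a (16.3 ± 0.503), Kdm6b (14.4 ± 0.887) and Ezh1 (6.75 ± 0.151) closed the order in CPM per kb, and the libraries of Kdm3b (16.4 to 17.3) and Kdm6a (16 to 16.9) overlapped. At day 6 in the cKO, Ezh1 had reached 15.7 ± 0.646 CPM per kb against 19.3 ± 0.695 for Ezh2.

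In undifferentiated cells, 4 of the 10 genes were called higher in the cKO, where 26.4% of all genes tested were, and 5 were called lower, where 27% of all genes were. The median log2 fold change was -0.11 over the 10 genes and 0.00 over all genes. At day 2, 9 were called higher and 1 lower, against 33.7% and 33.6% of all genes, and the median was 0.54 against -0.01. At day 6, 6 were called higher and 2 lower, against 36.7% and 37.8%, with a median of 0.15 against 0.00. The parental and cKO libraries of a day did not overlap for any of the 10 genes at any day, where 57.6%, 71% and 76.8% of all genes had groups without overlap at days 0, 2 and 6. Pluripotency markers were higher at day 2 as well: all 8 of those markers were called higher in the cKO, their sum was 1018 to 1077 CPM against 314 to 335 CPM, and none was at 0. The 20 proliferation genes summed to 6053 to 6205 CPM against 5070 to 5178 CPM at that day, with 13 called higher, 2 lower and none at 0. Mesoderm markers were lower at day 2, with 4 of 5 tested called lower (median log2 fold change -2.96), none higher, and sums of 4.12 to 4.54 CPM in the cKO against 50.4 to 55.8 CPM. Of 10 fibroblast markers, 6 were called lower and 2 higher at that day, with sums of 131 to 161 CPM against 219 to 235 CPM. The part of these 4 lists in the results for the 10 genes was not tested. Library sizes alone moved the median of all genes by -0.19 at day 2, where 8 genes were then called higher and 1 lower. Suz12 lost its call (0.10, adjusted p = 0.0999), while Ezh1, Ezh2 and Mtf2, at 0.23, 0.31 and 0.27, were still called. At day 6 that scaling moved the median by -0.20, and 1 gene was called higher and 3 lower. In such bulk samples fewer cells of a type and less RNA per cell cannot be told apart.

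**Figure D2:**
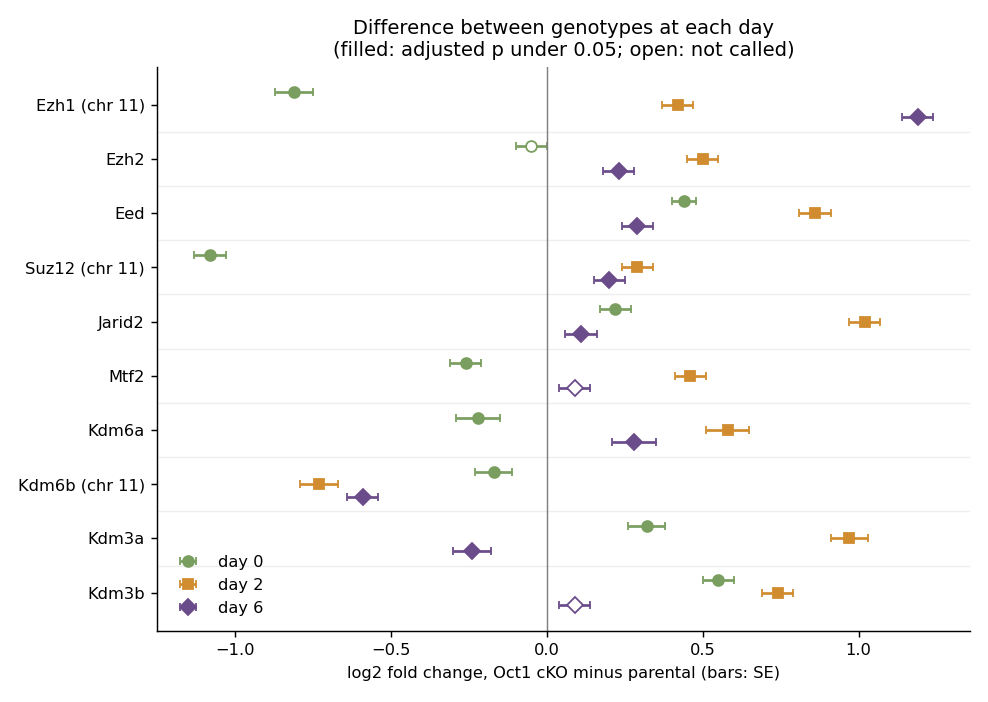
Log2 fold change of each gene, Oct1 cKO minus parental (horizontal axis), at 3 days, with SE as bars. Filled symbols passed an adjusted p of 0.05 and open symbols did not. At day 2 all symbols but that of Kdm6b lie right of 0, between 0.29 and 1.02.

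Ezh1, on chromosome 11 (101191115 to 101226463, minus strand, GRCm38, ENSMUSG00000006920), changed order between the genotypes over time. Its day 0 level was 51.4, 49.2 and 50 CPM in parental and 29.2, 27.7 and 29.1 CPM in cKO libraries. Every cKO library lay below every parental one, with a log2 fold change of -0.81 ± 0.06 (SE, adjusted p = 9.14e-15) and -0.81 without replicate 3 of the cKO. By day 2 the order had turned, with 112, 117 and 116 CPM in the cKO against 87.4, 84.3 and 86 CPM in parental cells. That difference was 0.42 ± 0.05 (adjusted p = 4.21e-10). At day 6 the cKO libraries held 112, 119 and 121 CPM and the parental ones 51.4, 50.6 and 52.2 CPM, a difference of 1.19 ± 0.05 (adjusted p = 3.09e-23). The parental libraries of day 6 overlapped those of day 0, and the cKO libraries of day 6 overlapped those of day 2. Ezh1 rose 4.01-fold from day 0 to day 2 in the cKO (log2 2.0 ± 0.05, adjusted p = 8.03e-29) and 1.71-fold in parental cells (0.78 ± 0.05, adjusted p = 4.78e-17). After day 2 it fell by 0.74 ± 0.05 in parental cells (adjusted p = 1.06e-16), while the cKO change was 0.03 ± 0.05 (adjusted p = 0.591) and turned to -0.16 (0.00174) with library sizes alone.

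Ezh2, the main catalytic subunit of dividing cells (chromosome 6, 47530139 to 47595341, minus strand, ENSMUSG00000029687), varied the least along with Kdm6a, at 2.09-fold between its highest and lowest group. Parental libraries held 216, 209 and 212 CPM at day 0 and cKO libraries 209, 200 and 208 CPM, a difference of -0.05 ± 0.05 that was not called (adjusted p = 0.407) and was also -0.05 without replicate 3 of the cKO. At day 2 parental cells held 158, 173 and 156 CPM and the cKO 225, 232 and 234 CPM. All 3 cKO libraries lay above the parental ones, by 0.50 ± 0.05 on the log2 scale (adjusted p = 2.33e-12). At day 6 the groups held 110, 111 and 109 CPM against 131, 132 and 123 CPM in the cKO, a difference of 0.23 ± 0.05 (adjusted p = 4.8e-05) that became 0.02 (0.699) and was not called with library sizes alone. In order of level the groups ran from the cKO at day 2 (mean 230 CPM) through parental day 0 (213), cKO day 0 (206), parental day 2 (162) and cKO day 6 (129) to parental day 6 (110), of which the neighbours at day 0 were not called different. Parental Ezh2 fell at both steps, by 0.39 ± 0.05 and 0.56 ± 0.05 (adjusted p = 7.49e-10 and 8.32e-14), but with library sizes alone the first change was -0.05 and not called (0.312). In the cKO its day 0 to day 2 change was 0.16 ± 0.05 (adjusted p = 0.00165), a call lost in 3 alternatives: with TMM factors from genes outside chromosome 11 (0.09, adjusted p = 0.0817), with no filter (0.10, 0.0646) and with only the libraries compared (0.12, 0.0568). It then fell by 0.84 ± 0.05 (adjusted p = 3.87e-19).

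The balance of Ezh1 and Ezh2 transcripts was also read inside each library, where no scaling factor enters. The log2 ratio of Ezh1 to Ezh2 counts was -2.07, -2.09 and -2.08 in parental libraries at day 0 and -2.84, -2.85 and -2.84 in the cKO. At day 2 it was -0.85, -1.04 and -0.86 in parental and -1.0, -0.99 and -1.02 in cKO libraries, which overlapped. At day 6 it was -1.10, -1.14 and -1.06 against -0.23, -0.15 and -0.03. Ezh1 counts in the cKO at day 6 thus came close to Ezh2 counts (1876 to 2060 against 1943 to 2282), where at day 0 they were 353 to 464 against 2552 to 3320. Taken as cKO minus parental, the difference was -0.76, -0.08 and 0.96 in order of day (exact 2-sided permutation p = 0.1, 0.4 and 0.1). With 3 libraries against 3 the smallest p this test can give is 0.1.

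**Figure D3:**
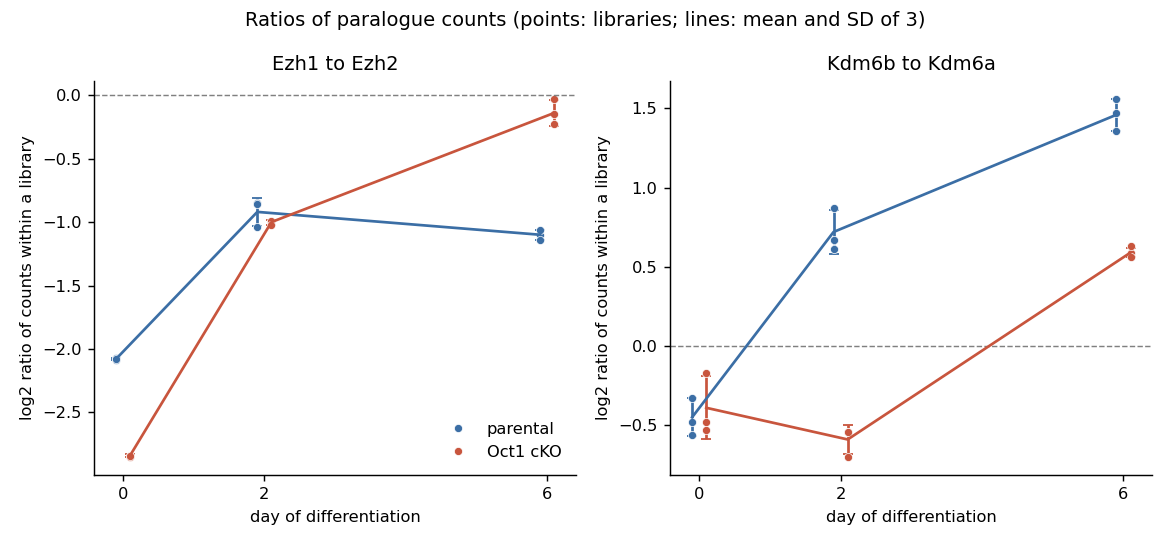
Within-library log2 ratio of counts (vertical axis) for Ezh1 to Ezh2 and Kdm6b to Kdm6a against day of differentiation. Points are libraries, lines join means of 3 and bars are SD. The Ezh1 to Ezh2 ratio of the cKO rises from -2.84 to -0.14, and the Kdm6b to Kdm6a ratio of the cKO stays below the parental one at days 2 and 6.

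Suz12, the core scaffold (chromosome 11, 79993106 to 80034123, plus strand, ENSMUSG00000017548), had the largest range of the 10 genes, 5.63-fold between groups. Mtf2 (5.47-fold) and Eed (5.29-fold) came close to it. Before differentiation Suz12 stood at 1348, 1299 and 1327 CPM in parental and at 658, 661 and 556 CPM in cKO libraries, which did not overlap. The cKO level was lower by -1.08 ± 0.05 on the log2 scale (adjusted p = 1.93e-19), and by -1.0 without replicate 3 of the cKO. Parental Suz12 then dropped to 409, 400 and 390 CPM at day 2, below the 486, 511 and 470 CPM of the cKO. The sign of the genotype difference turned with that drop, to 0.29 ± 0.05 (adjusted p = 8.16e-06), a call lost with library sizes alone (0.10, adjusted p = 0.0999). At day 6 Suz12 stood at 239, 246 and 220 CPM against 277, 262 and 269 CPM in the cKO, 0.20 ± 0.05 higher (adjusted p = 0.00139), which became -0.01 (0.891) with library sizes alone. From day 0 to day 2 Suz12 fell by 1.73 ± 0.05 in parental cells and by 0.35 ± 0.05 in the cKO (adjusted p = 5.45e-27 and 1.7e-07). The later falls were 0.76 ± 0.05 and 0.86 ± 0.05, and the difference between these changes, -0.10 ± 0.08, was not called (adjusted p = 0.271).

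Eed, the subunit that binds the methyl mark (chromosome 7, 89954654 to 89980983, minus strand, ENSMUSG00000030619), was higher in the cKO at all 3 days. Parental libraries held 243, 228 and 230 CPM at day 0, 73.7, 73.1 and 69 CPM at day 2 and 58.9, 62.4 and 57.9 CPM at day 6. In the cKO the same days gave 316, 312 and 321 CPM, then 131, 134 and 126 CPM, then 72.5, 72.8 and 73.9 CPM. No cKO library overlapped the parental ones of its day. Its log2 fold changes were 0.44 ± 0.04, 0.86 ± 0.05 and 0.29 ± 0.05 (adjusted p = 8.09e-11, 1.91e-18 and 1.94e-06), and the first was 0.43 without replicate 3 of the cKO. At day 6 library sizes alone gave 0.09, which was not called (adjusted p = 0.109). Eed fell most between day 0 and day 2, by 1.70 ± 0.05 in parental and 1.28 ± 0.05 in cKO cells (adjusted p = 1.01e-28 and 4.3e-25). Between days 2 and 6 it fell by 0.27 ± 0.05 and 0.84 ± 0.05 (adjusted p = 5.29e-06 and 1.21e-18), so the larger fall passed from the parental to the cKO cells.

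Jarid2, which helps to recruit PRC2 (chromosome 13, 44729474 to 44921643, plus strand, ENSMUSG00000038518), gave the largest genotype difference of the 10 at day 2, close to that of Kdm3a (0.97 ± 0.06). Jarid2 held 185, 178 and 179 CPM in parental cells at that day and 375, 367 and 358 CPM in the cKO, 2.03-fold more (log2 1.02 ± 0.05, adjusted p = 5.85e-21). The days on either side were closer. Parental libraries held 464, 451 and 453 CPM at day 0 against 556, 542 and 490 CPM in the cKO, a difference of 0.22 ± 0.05 (adjusted p = 0.000109) and of 0.27 without replicate 3 of the cKO. At day 6 they held 171, 172 and 178 CPM against 189, 181 and 192 CPM. That difference of 0.11 ± 0.05 (adjusted p = 0.0329) was lost without replicate 1 (0.08, adjusted p = 0.146) or replicate 3 (0.08, 0.192) of the cKO, and its sign turned with library sizes alone (-0.09, 0.074). It was 0.17 with DESeq2 or its size factors. Parental Jarid2 fell by 1.33 ± 0.05 from day 0 to day 2 (adjusted p = 2.3e-25), and its later change was -0.06 ± 0.05 (adjusted p = 0.258). That later change was called, at -0.11 to -0.23, in all 6 alternatives of scaling, filter, tool or libraries compared and without parental replicate 2 or 3 of day 2 or replicate 3 of day 6. In the cKO the fall was spread over both steps, at 0.53 ± 0.05 and 0.97 ± 0.05 (adjusted p = 2.94e-13 and 5.12e-21).

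Mtf2, a Polycomb-like protein that binds CpG-rich DNA (chromosome 5, 108065674 to 108109004, plus strand, ENSMUSG00000029267), fell at every step in both genotypes. Its locus overlaps Tmed5 on the opposite strand, which held 19106 counts over the 18 libraries, so its level is uncertain where counting ignored strand. Parental libraries held 598, 581 and 586 CPM at day 0, 225, 215 and 212 CPM at day 2 and 107, 112 and 104 CPM at day 6. Those of the cKO held 501, 511 and 462 CPM, then 291, 313 and 295 CPM, then 112, 113 and 117 CPM. The cKO was thus below parental cells at day 0 (-0.26 ± 0.05, adjusted p = 6.51e-06, and -0.22 without replicate 3) and above them at day 2 (0.46 ± 0.05, adjusted p = 3.15e-11). At day 6 the difference of 0.09 ± 0.05 was not called (adjusted p = 0.104), but it was called without parental replicate 1 (0.13, 0.0447), parental replicate 2 (0.15, 0.013) or cKO replicate 2 (0.14, 0.0282), and it was -0.12 (adjusted p = 0.0341) with library sizes alone. It was also called with DESeq2 size factors, with no filter and with DESeq2, at 0.14 to 0.15. Mtf2 fell by 1.44 ± 0.05 and then 1.02 ± 0.05 in parental cells, and by 0.71 ± 0.05 and then 1.39 ± 0.05 in the cKO.

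Kdm6a, an X-linked demethylase that works inside the MLL3 and MLL4 complexes (chromosome X, 18162575 to 18279936, plus strand, ENSMUSG00000037369), was higher in the cKO at days 2 and 6. Undifferentiated cells gave 142, 134 and 135 CPM in parental and 129, 127 and 97.3 CPM in cKO libraries. The call of -0.22 ± 0.07 at that day (adjusted p = 0.0053) rested on the library at 97.3 CPM, replicate 3 of the cKO, without which the difference was -0.10 (adjusted p = 0.0792). It was also lost with only the libraries compared (adjusted p = 0.0608). At day 2 it held 74.2, 72.3 and 70 CPM against 109, 108 and 106 CPM in the cKO, a difference of 0.58 ± 0.07 (adjusted p = 1.12e-08). Day 6 gave 64.6, 62.7 and 69.7 CPM against 78, 82.9 and 78.3 CPM (0.28 ± 0.07, adjusted p = 0.000647), a call lost with library sizes alone (0.08, adjusted p = 0.381). Parental Kdm6a fell 1.90-fold from day 0 to day 2 (-0.93 ± 0.07, adjusted p = 1.56e-13). The cKO change at that step was -0.12 ± 0.07 (adjusted p = 0.105), and -0.26 (adjusted p = 3.23e-06) without replicate 3 of day 0. It was also called, at -0.18 to -0.19, with DESeq2 size factors, TMM factors without chromosome 11, no filter and DESeq2, and was 0.04 with library sizes alone. Later it fell by 0.44 ± 0.07 in the cKO (adjusted p = 1.19e-06), while the parental change of -0.14 ± 0.07 was not called (adjusted p = 0.072). That parental change was called in all 6 alternatives of scaling, filter, tool or libraries compared, at -0.19 to -0.31, and without any 1 of 5 of its 6 libraries (all but replicate 2 of day 6), at -0.18 to -0.24.

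Kdm6b, the inducible H3K27 demethylase (chromosome 11, 69398508 to 69413675, minus strand, ENSMUSG00000018476), was lower in the cKO at all 3 days and rose late. Parental libraries held 96.3, 107 and 96.8 CPM at day 0, 113, 115 and 128 CPM at day 2 and 190, 174 and 179 CPM at day 6. In the cKO they held 92.7, 87.9 and 86.7 CPM, then 75.1, 66.9 and 73 CPM, then 117, 123 and 121 CPM. The groups of a day did not overlap. Its day 0 difference of -0.17 ± 0.06 (adjusted p = 0.011) was lost without parental replicate 2, the highest of its group (-0.11, adjusted p = 0.146), and with DESeq2 (-0.14, 0.051), and was -0.15 without replicate 3 of the cKO. Those of day 2 and day 6 were -0.73 ± 0.06 and -0.59 ± 0.05 (adjusted p = 3.28e-14 and 1.09e-12). From day 0 to day 2 the genotypes moved in opposite directions, with a log2 change of 0.24 ± 0.05 for parental (adjusted p = 0.000115) and -0.32 ± 0.06 for cKO cells (adjusted p = 7.58e-06). Afterwards both rose, by 0.61 ± 0.05 and 0.75 ± 0.06 (adjusted p = 3.14e-13 and 5.37e-15).

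Read inside libraries, the log2 ratio of Kdm6b to Kdm6a counts was -0.56, -0.33 and -0.48 in parental cells at day 0 and -0.48, -0.53 and -0.17 in the cKO. These overlapped, with a mean difference of 0.06 (exact 2-sided permutation p = 0.6) that was -0.05 without replicate 3 of the cKO. Parental libraries then moved to 0.61, 0.67 and 0.87 at day 2, where Kdm6b exceeded Kdm6a in counts, and the cKO stood at -0.54, -0.70 and -0.54. At day 6 parental libraries reached 1.56, 1.47 and 1.36, and the cKO 0.59, 0.56 and 0.63. The genotype difference was -1.31 at day 2 and -0.87 at day 6 (exact permutation p = 0.1 each).

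Kdm3a, an H3K9 demethylase (chromosome 6, 71588972 to 71632990, minus strand, ENSMUSG00000053470), was the gene whose course differed most between the genotypes after day 2. Parental libraries fell from 392, 392 and 396 CPM at day 0 to 111, 125 and 119 CPM at day 2 and came back to 205, 207 and 217 CPM at day 6. Those of the cKO held 515, 512 and 451 CPM, then 208, 256 and 228 CPM, then 174, 175 and 183 CPM. The parental course had a low at day 2 and the cKO course did not. The cKO stood above parental cells at day 0 (0.32 ± 0.06, adjusted p = 7.91e-06, and 0.39 without replicate 3) and at day 2 (0.97 ± 0.06, adjusted p = 2.17e-16), and below them at day 6 (-0.24 ± 0.06, adjusted p = 0.000341, and -0.45 with library sizes alone). Between days 2 and 6 Kdm3a rose by 0.83 ± 0.06 in parental cells and fell by 0.38 ± 0.06 in the cKO (adjusted p = 4.46e-15 and 3.29e-07). The step before was a fall in both, by 1.74 ± 0.06 and 1.09 ± 0.06 (adjusted p = 2.16e-24 and 8.79e-19).

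Kdm3b, the close relative of Kdm3a (chromosome 18, 34777047 to 34838660, plus strand, ENSMUSG00000038773), fell at each step in both genotypes. Parental libraries held 232, 240 and 244 CPM at day 0, 169, 153 and 155 CPM at day 2 and 130, 130 and 132 CPM at day 6. In the cKO the values were 369, 361 and 316 CPM, then 267, 273 and 258 CPM, then 133, 140 and 145 CPM. The genotypes were apart at the first 2 times and close at the last. Its differences were 0.55 ± 0.05, 0.74 ± 0.05 and 0.09 ± 0.05 in order of day (adjusted p = 1.08e-11, 1.33e-15 and 0.101), and the first was 0.62 without replicate 3 of the cKO. The day 6 difference was called without any 1 of the 3 parental libraries or without cKO replicate 2, at 0.13 to 0.14. It was also called in 4 of the other alternatives, at 0.10 to 0.16, and was -0.11 with library sizes alone. Kdm3b fell by 0.59 ± 0.05 and 0.28 ± 0.05 in parental cells and by 0.39 ± 0.05 and 0.93 ± 0.05 in the cKO, and all 4 falls were called. With library sizes alone the parental changes were -0.25 and -0.46 and the first cKO change -0.23, all 3 still called.

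Between day 0 and day 2, parental cells showed 2 of the 10 genes called higher and 8 lower, against 43.2% and 37.7% of all genes. The median over the 10 genes was -1.13, against 0.08 over all genes. In the cKO the counts were 2 higher and 7 lower, against 41% and 35.5%, with a median of -0.37 against 0.08. From day 2 to day 6, 2 were called higher and 6 lower in parental cells, against 42.6% and 36.9%. In the cKO 1 was called higher and 8 lower at that step, against 39.6% and 41.6%. The parental count called lower was 8 in all 6 alternatives of scaling, filter, tool or libraries compared. Those alternatives moved the parental median of all genes at that step by -0.06 to -0.18. The medians of that step were -0.28 and -0.84, against 0.06 and -0.04 over all genes. Both steps share the day 2 libraries of a genotype. With library sizes alone, several changes moved by more than 1.5 times and were still called. At the first step these were, in parental cells, 0.58 for Kdm6b and -0.59 for Kdm6a, and in the cKO 0.32 for Ezh2, -0.19 for Suz12 and -0.15 for Kdm6b. At the second step parental Eed changed by -0.45, and the difference between genotypes in the first step of Eed was 0.24. The median fall was thus larger before day 2 in parental cells and after day 2 in the cKO. Of the 20 proliferation genes, 14 were called lower and 3 higher at the first step in parental cells, and 13 and 6 in the cKO. At the second step these counts were 17 and 2 in parental cells and 18 and 2 in the cKO. Of 8 tested partners of Kdm6a in the MLL3 and MLL4 complexes, 7 were called lower and 1 higher at the parental first step (median -1.18). Of 10 other H3K9 and H3K27 demethylases, 5 were lower and 4 higher there.

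**Figure D4:**
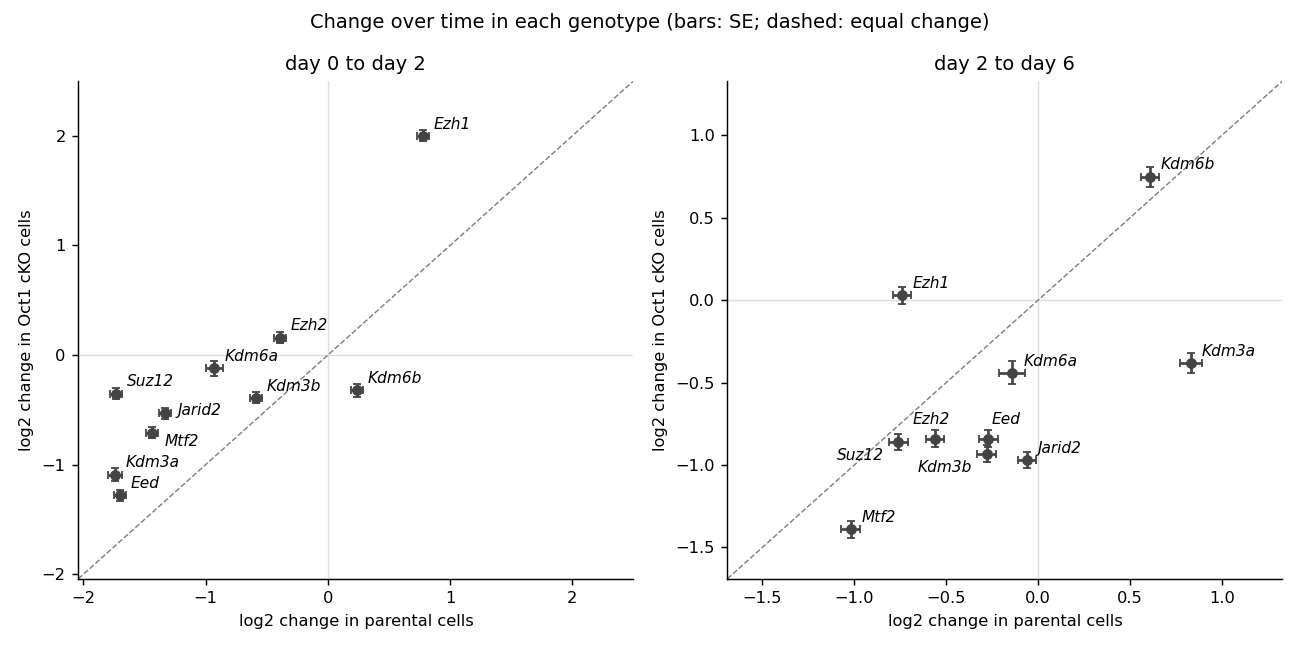
Log2 change from day 0 to day 2 and from day 2 to day 6, parental on the horizontal and Oct1 cKO on the vertical axis, with SE as bars. The dashed line marks equal change. From day 0 to day 2, 9 genes lie above the line and Kdm6b below it. From day 2 to day 6, 8 genes lie below it, with Ezh1 and Kdm6b above.

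The difference between genotypes in the change itself was tested as an interaction. From day 0 to day 2 it was called higher in the cKO for 9 of the 10 genes and lower for Kdm6b, where 30.1% and 26.9% of all genes were called. Suz12 (1.38 ± 0.07, adjusted p = 3.29e-18) and Ezh1 (1.23 ± 0.07, adjusted p = 6.48e-17) led. From day 2 to day 6 it was called higher for Ezh1 and lower for 7 genes, where 31.5% and 32% of all genes were called, with Kdm3a (-1.21 ± 0.08, adjusted p = 3.93e-15) and Jarid2 (-0.91 ± 0.07, adjusted p = 4.53e-15) lowest. The call of Kdm3b at the first step (0.20 ± 0.07, adjusted p = 0.0184) was lost in 6 alternatives of scaling, filter or tool and without any 1 of 4 libraries, at 0.02 to 0.18. The call of Kdm6a at the second step (-0.30 ± 0.10, adjusted p = 0.00847) was lost without parental replicate 3 of day 2 (-0.22, 0.0619) or of day 6 (-0.20, 0.0851), and with DESeq2 size factors (-0.20, 0.0797) or DESeq2 (-0.20, 0.109). Ezh2, at -0.28 ± 0.07 in that step, was -0.18 and still called with DESeq2, with its size factors and with only the libraries compared. Kdm6b, at 0.14 ± 0.08 in that step (adjusted p = 0.115), was called in 5 alternatives and without parental replicate 1 or 2 of day 2 or replicate 1 of day 6, at 0.20 to 0.24. Of the 20 proliferation genes, 11 were called higher and 3 lower in this interaction at the first step. At the second step 3 were called higher and 14 lower. The part of these genes in the results for the 10 genes was not tested.

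Ezh1, Suz12 and Kdm6b lie on chromosome 11, whose genes were lower in the cKO as a group. With 974 of its genes at a mean of at least 5 CPM, the median difference (log2) was -0.38, -0.37 and -0.39 at days 0, 2 and 6, and 69.3%, 68.1% and 64.3% of them were called lower. Medians of the other autosomes ran from -0.06 to 0.14, from 0.05 to 0.16 and from 0.03 to 0.17. Set against the median of the chromosome, Ezh1 stood at -0.43, 0.79 and 1.58 on the log2 scale at days 0, 2 and 6. Suz12 stood at -0.71, 0.66 and 0.59 and Kdm6b at 0.21, -0.36 and -0.20 on this scale. Kdm6b at day 0 was thus less reduced than the median of its chromosome. On other chromosomes, 4 of 7 genes were called higher and 2 lower at day 0, where 26.4% and 27% of all genes were. All 7 were called higher at day 2, against 33.7% of all genes, and 4 were called higher and 1 lower at day 6, against 36.7% and 37.8%. Those shares include chromosome 11 and genes of low count. For genes at a mean of at least 5 CPM, the share called higher per other autosome was 26.3% to 43.8% at day 0. It was 40.7% to 49.7% at day 2 and 41.9% to 50.4% at day 6. The shares called lower were 23.3% to 36.2%, 26.7% to 33.5% and 32.1% to 40.6% in order of day. The part of the chromosome in the differences of these 3 genes was not tested.

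**Figure D5:**
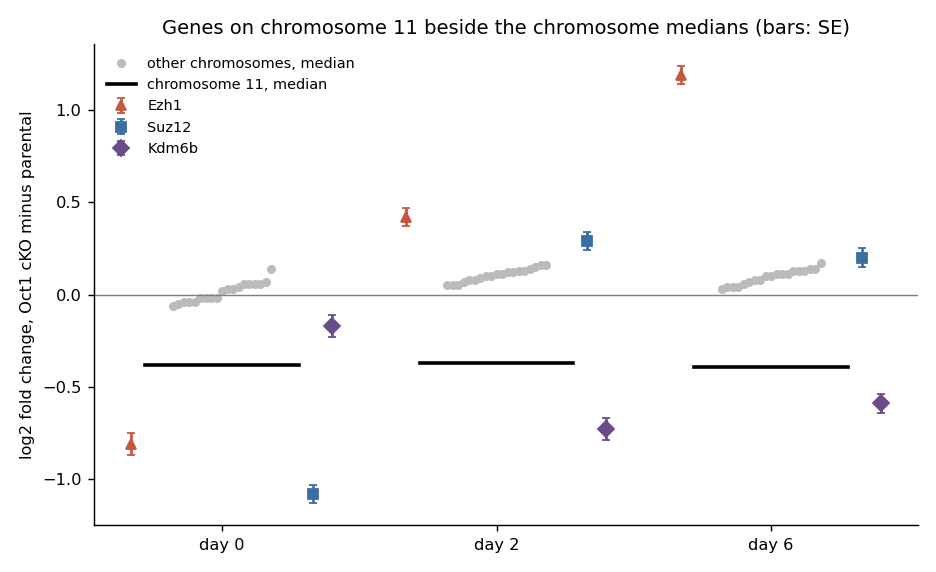
Log2 fold change, Oct1 cKO minus parental (vertical axis), at 3 days for Ezh1, Suz12 and Kdm6b (symbols with SE) beside the median of chromosome 11 (black bars) and of each other chromosome (grey points). The black bars lie at -0.37 to -0.39, below every grey point, and Ezh1 and Suz12 lie below the bar at day 0 and above it at days 2 and 6.

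Other PRC2 genes were taken from a list of 8 subunits and cofactors (Rbbp4, Rbbp7, Aebp2, Phf1, Phf19, Epop, Lcor and Lcorl). At day 0, 3 were called higher and 2 lower in the cKO, at day 2 the counts were 5 and 2, and at day 6 they were 6 and 1. Over all genes the shares called higher and lower were 26.4% and 27% at day 0, 33.7% and 33.6% at day 2, and 36.7% and 37.8% at day 6. The histone-binding subunit Rbbp7 was 1745 CPM in the cKO and 665 CPM in parental cells at day 6 (log2 1.39 ± 0.05, adjusted p = 1.14e-25), while Lcorl was 2.66-fold lower in the cKO at that day (-1.41 ± 0.06, adjusted p = 7.05e-22). Epop, which links PRC2 to elongin and lies on chromosome 11, was higher at day 0 (0.87 ± 0.09) and day 6 (1.77 ± 0.10) and lower at day 2 (-0.57 ± 0.10). From day 0 to day 2, 3 genes of the list were called higher and 3 lower in parental cells, and 4 higher and 3 lower in the cKO. Over all genes the shares at that step were 43.2% and 37.7% in parental cells and 41% and 35.5% in the cKO. Aebp2, a partner of Jarid2 in the complex, fell at that step by 1.58 ± 0.05 in parental cells and 1.14 ± 0.05 in the cKO. Rbbp7 rose 2.10-fold and 2.13-fold, and Lcorl 1.83-fold and 4.95-fold, in parental and cKO cells.

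PRC1 is a complex of which only some forms bind the mark PRC2 makes. Of 21 subunits of its various forms, 6, 9 and 8 were called higher and 8, 8 and 12 lower in the cKO at days 0, 2 and 6. Over all genes 26.4%, 33.7% and 36.7% were called higher and 27%, 33.6% and 37.8% lower at those days, which also stand beside the counts of the lists that follow. Pcgf5 was 4.12-fold higher at day 6 (2.04 ± 0.05) and Cbx2, which is on chromosome 11, was 3.55-fold lower (-1.83 ± 0.06). Among 8 tested partners of Kdm6a in the MLL3 and MLL4 complexes, 5 were called higher and 2 lower at day 0, 7 higher and none lower at day 2, and 7 higher and 1 lower at day 6. Kdm6a itself was called lower at day 0 and higher at days 2 and 6. The enzyme subunit Kmt2c was 2.30-fold higher at day 6 (1.20 ± 0.14, adjusted p = 4.35e-06). Among 10 other demethylases of H3K9 and H3K27, 4, 6 and 6 were called higher and 1, 2 and 3 lower. Uty, the Y-linked relative of Kdm6a, was 1.84, 2.80 and 1.82-fold higher in the cKO at days 0, 2 and 6. Its log2 differences were 0.88 ± 0.08, 1.49 ± 0.07 and 0.86 ± 0.07 (adjusted p = 2.49e-11, 8.34e-18 and 1.74e-12). Of 6 H3K9 methyltransferases, which act on the same lysine as Kdm3a and Kdm3b, 3, 3 and 2 were called higher and 2, 2 and 3 lower. Ehmt2 (G9a) was higher at all 3 days, by 0.37 ± 0.05, 0.83 ± 0.05 and 0.54 ± 0.05.

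Likeness of course was measured over the 6 group means, as the root mean square (RMS) difference of centred log2 CPM among 9687 genes. The gene nearest to Ezh2 was Rtraf at 0.0499, to Jarid2 Atad2b at 0.0433, to Kdm6a Xpot at 0.0449 and to Kdm3b Znrd1 at 0.0403. Suz12 and Kdm6b were nearest to Rnf138 at 0.221 and Tug1 at 0.0815, and Ezh1 to Zdhhc21 at 0.107. Suz12 thus had no near match on this scale, which is not adjusted for how much a gene varies. The RMS of a gene's own centred means was 0.826 for Suz12, against 0.393 for Ezh2 and 0.387 for Kdm6a. Among the 10 genes the closest pairs were Ezh2 with Kdm6a (0.202) and Jarid2 with Kdm3b (0.228), and the farthest was Ezh1 with Eed (1.48). These distances describe 6 group means that share libraries and carry no test.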

How the data were processed

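Total RNA of 18 mouse ESC libraries was sequenced. The authors deposited raw counts, whole numbers per Ensembl gene, without normalization. Per the submitters' processing notes, Novoalign, DESeq2 1.10.0, mm10 and GRCm38 were involved, with no role given. How reads were counted (tool, annotation, strand, reads with several matches) is not given in the sources used here, so overlapping genes may share reads. Gene coordinates and exon lengths come from GENCODE M21 (GRCm38), which matched 21977 of the 21995 gene IDs.

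The main test was edgeR 4.0.16's quasi-likelihood test (glmQLFit with robust settings) in R 4.3.3, with TMM factors and filterByExpr (minimum count 10, minimum total 15). One fit held all 18 libraries with a coefficient per group and gave 9 comparisons, each adjusted by Benjamini-Hochberg over 18352 genes. It was tested on simulated data. SEs derive from the F statistic. Within-library ratios used log2 counts with 0.5 added and an exact permutation test (scipy 1.17.1). All 10 genes are named in every comparison. Of each related list, up to 2 called genes with the largest rise and 2 with the largest fall could be named. The genes and lists were chosen with earlier results of these data known. Alternatives were DESeq2 size factors in edgeR, library sizes alone, TMM factors without chromosome 11, no filter, DESeq2 1.42.0, only the libraries compared, 5 added in the ratios, and each library left out in turn. No replicate pair fell within sampling noise.

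Depth was 13694126 to 19296966 counts per library. The lowest count of any of the 10 genes in a library was 353, for Ezh1. Pagr1a and Mesp1 were not analysed here.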

Additional observations from a re-analysis of the deposited data

Results flagged for a closer look

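Of the 20 tests of a genotype difference in the change over time, 18 were called for the 10 genes, against 30.1% of all genes called higher and 26.9% lower at the first step and 31.5% and 32% at the second. Each is given as the log2 change in the cKO minus that in parental cells. From day 0 to day 2 the difference was 1.38 ± 0.07 (SE) for Suz12, 1.23 ± 0.07 for Ezh1, 0.81 ± 0.06 for Jarid2, 0.80 ± 0.10 for Kdm6a and 0.72 ± 0.06 for Mtf2. For Kdm3a it was 0.64 ± 0.08, for Ezh2 0.55 ± 0.06, for Eed 0.42 ± 0.06, for Kdm3b 0.20 ± 0.07 and for Kdm6b -0.56 ± 0.08. From day 2 to day 6 it was 0.77 ± 0.07 for Ezh1, -0.28 ± 0.07 for Ezh2, -0.57 ± 0.07 for Eed, -0.91 ± 0.07 for Jarid2 and -0.38 ± 0.07 for Mtf2. Kdm6a gave -0.30 ± 0.10, Kdm3a -1.21 ± 0.08 and Kdm3b -0.65 ± 0.07 at that step. The adjusted p of edgeR's quasi-likelihood test ran from 3.29e-18 for Suz12 to 0.0184 for Kdm3b at the first step, and from 3.93e-15 for Kdm3a to 0.00847 for Kdm6a at the second. Eed, Jarid2, Mtf2, Kdm6a, Kdm3a, Kdm3b and Ezh2 changed sign between the steps, and both steps share the day 2 libraries.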

How the results depend on the processing

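Of 1200 values of single genes under the alternatives, 1117 kept their direction and their side of the threshold, and 8 changed sign. Among values that kept their sign, 28 lost a call and 47 gained one. The 8 were counted apart, whether or not a call changed with the sign. Library sizes alone gave 6 of those 8, and that scaling moved the median of all genes at day 6 by -0.20. With it the day 6 difference was -0.01 for Suz12 (adjusted p = 0.891), -0.09 for Jarid2, -0.12 for Mtf2 and -0.11 for Kdm3b, the calls of Ezh2 (0.02), Eed (0.09) and Kdm6a (0.08) were lost, and 4 of the 10 genes were called at day 6 (1 higher, 3 lower) in place of 8. It also gave a change from day 0 to day 2 in the cKO of 0.04 for Kdm6a (median of all genes moved by 0.16) and from day 2 to day 6 in the cKO of -0.16 for Ezh1 (adjusted p = 0.00174; median moved by -0.19). In parental cells from day 0 to day 2 it called 4594 genes lower in place of 6913 (median moved by 0.34). The Suz12 difference in change from day 2 to day 6 was 0.01 both with DESeq2 size factors in edgeR (adjusted p = 0.968) and with DESeq2 (0.963). The day 0 genotype difference in the Kdm6b to Kdm6a ratio ran from -0.05 to 0.13 with 1 library left out, and was -0.05 without cKO replicate 3. The cause of these changes was not tested. The labels give no replicate numbers. No paired analysis was possible because nothing ties a library of one group to a library of another.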

Other observations

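Summed levels of markers of other cell types differed between genotypes at day 6, beside the differences of Ezh1 and Kdm6b at that day. Over all genes tested, 36.7% were called higher and 37.8% lower at day 6, and 26.4% and 27% at day 0. Of 7 trophoblast markers, 6 were called higher and 1 lower in the cKO at day 6, with a sum of 2237 to 2522 CPM against 660 to 717 CPM in parental libraries and none at 0. Of 10 fibroblast markers, 8 were called lower and 1 higher, with sums of 518 to 624 CPM against 4471 to 4839 CPM. Of 8 extraembryonic endoderm markers, 6 were called higher and 2 lower, with sums of 1051 to 1200 CPM against 804 to 849 CPM. Of 6 neural markers, 2 were called higher and 3 lower, with sums of 30.9 to 37 CPM against 123 to 127 CPM. Sox1 was at 0 in the cKO and under 1 CPM in every parental library of that day. Of 5 tested mesoderm markers, 3 were called lower, with sums of 17.7 to 18.3 CPM against 217 to 249 CPM. At day 0, 9 of the 10 fibroblast markers were called lower in the cKO, with sums of 376 to 388 CPM against 1204 to 1274 CPM. The part of these markers in the results for PRC2 and demethylase genes was not tested.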
